A study of Ixodes ricinus with 9 samples.

Results

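GTPase-activating proteins and guanine nucleotide exchange factors are the opposed regulators of the small GTPases. The genes described here were those of the deposited count table whose annotation carried at least 1 of 8 Pfam domains, leaving out genes with a protein kinase or myosin motor domain, which removed 1 gene. This rule gave 99 of 28510 genes, of which 63 held an activating domain, 35 held an exchange domain and 1 held both. The activating domains were RhoGAP, Rab-GAP-TBC, RasGAP, ArfGAP and Rap-GAP, and the exchange domains were RhoGEF, RasGEF and Sec7. The table came from RNA-seq of midguts of female *Ixodes ricinus*, the castor bean tick, which were injected before feeding with double-stranded RNA, fed artificially on bovine blood and dissected on the seventh feeding day. The 3 groups were GFP (double-stranded RNA against green fluorescent protein, which the tick lacks, as control), MET (against a metalloprotease) and P23 (against antigen p23). Each group had 3 libraries, each library was a pool of 3 ticks, and the 9 ticks of a group were each in 1 pool. All ticks were injected, so no uninjected group is part of the comparison, and RNA interference acts in the whole tick and not only in the midgut. The 2 target genes were not paired with a row of the table in the sources used here, so their own levels were not analysed here. By RT-qPCR, the study reported antigen p23 silenced in both midgut and salivary glands. It reported the metalloprotease fully silenced in salivary glands but only partially knocked down in midgut.

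A small GTPase is a molecular switch that is on when it holds GTP and off when it holds GDP. Exchange factors open the GTPase so that GDP leaves and GTP binds, and activating proteins speed up the hydrolysis of GTP, which turns the switch off. Rac and Cdc42 organise the actin cytoskeleton, Rab and Arf GTPases direct vesicle budding and fusion, and Ras, Rap and Ral carry growth and adhesion signals. Tick midgut cells take up blood proteins by endocytosis and digest them inside the cell, so Rab and Arf regulators belong to the trafficking machinery of this tissue. Gene names below are the best Swiss-Prot match in the deposited annotation, mostly of mammalian or fly proteins, and the roles given are known from those species and not from ticks.

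The libraries held 3303358 to 9430607 counts. P23 replicates 1 and 2 stood apart, with at least 1 count for 25.6% and 22.1% of all genes, against 32.0% to 38.5% in the other 7 libraries. The same libraries left 36 and 48 of the 99 members without a count, against 13 to 18 in the other 7. As a check of the tissue, the 25 genes matching digestive cathepsins, legumain, dipeptidyl peptidase 1 and acid phosphatase (14 with a count) summed to 2024 to 2827 CPM (counts scaled to a common library total) in GFP, 1821 to 2738 in MET and 2285 to 4802 in P23. The 12 genes with a vitellogenin domain, 9 with a count, were listed for fat body or ovary. They summed to 29465 to 84859 CPM in GFP, 30624 to 91457 in MET and 26029 to 57863 in P23. Most of this sum lay in the vitellogenin match HPB47_012779 (16548 to 62915 CPM over the 9 libraries) and the apolipophorin match HPB47_020504 (9009 to 28261). Whether midgut cells made these transcripts was not tested, so the list cannot be read as a measure of other tissues. The 7 genes of the muscle list, all with counts, were chosen by troponin, tropomyosin or myosin tail domains. They summed to 2938 to 4062 CPM in GFP, 2259 to 4258 in MET and 3463 to 4159 in P23. That list also took in a non-muscle myosin match at 746 to 1300 CPM, while the muscle myosin match HPB47_019820 was at 776 to 2391 CPM over the 9 libraries. Of the 2 genes of the neuronal list, the ELAV-like protein 1 match, whose mammalian counterpart is broadly expressed, was at 424 to 703 CPM, and the ELAV-like protein 4 match, the neuronal type in mammals, had counts in GFP replicate 2 and MET replicate 1 alone (3.42 and 1.03 CPM). Regulators of small GTPases are made in all of these tissues, and the part of the other tissues in the levels below was not tested. In pooled tissue, fewer cells of a type and less RNA per cell cannot be told apart.

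In the GFP control midguts 88 of the 99 members had at least 1 count, and 9 members (8 activating, 1 exchange) were at 0 in all 9 libraries. Levels of different genes were compared per kb of coding length. The median level was 3.54 CPM per kb over the 63 activating proteins and 6.58 over the 35 exchange factors. Exchange genes were also longer, with a median coding length of 2919 bases against 1752. By family the Sec7 genes had the highest median at 41.6 CPM per kb over 5 genes. The Sec7 domain is that of exchange factors that load Arf GTPases with GTP. The gene at the median was HPB47_009469, which matched an F-box protein. RasGEF followed at 7.81 over 8 genes and ArfGAP at 7.41 over 8 genes. The largest families were at 3.69 (26 RhoGAP genes) and 2.96 (24 RhoGEF genes). Rab-GAP-TBC genes were at 3.27 (20 genes), RasGAP genes at 2.13 (7 genes) and Rap-GAP genes at 1.46 (3 genes). Exchange families thus had the higher median for the Arf and Ras switches, while RhoGEF genes lay slightly below RhoGAP genes; these medians describe the GFP libraries and carry no test.

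**Figure D1:**
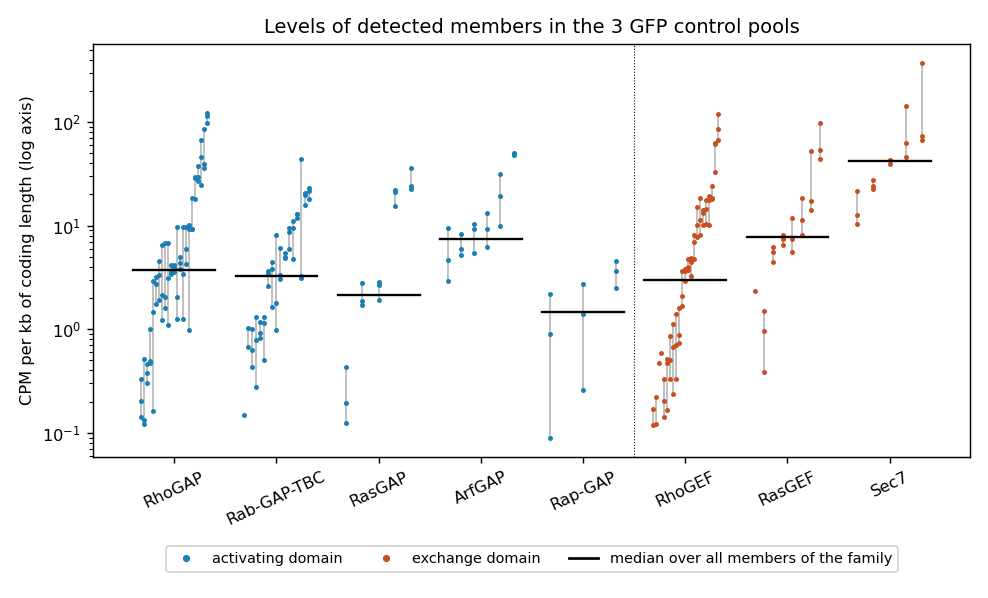
Level of each member in the 3 GFP control libraries, as CPM per kb of coding length on a log axis, by Pfam family. Each column of dots is 1 gene with a grey line over its range, 0 values are not drawn, and the black bar is the median of the mean levels over all members of the family, genes at 0 included. The 5 Sec7 genes lie high as a group, while RhoGAP and RhoGEF genes spread from below 1 to above 100 CPM per kb.

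The Sec7 family held the most abundant member. HPB47_025035, matching cytohesin-2, an Arf exchange factor of the plasma membrane, lies on scaffold JABSTQ010009578.1 of the *Ixodes persulcatus* build BIME_Iper_1.3 (1071865 to 1089483). Its level was 66.8, 373 and 73.1 CPM per kb in GFP replicates 1, 2 and 3 (171 ± 175, SD, n = 3), so the mean rested on replicate 2. HPB47_027008, matching IQSEC1, an exchange factor for Arf6, was also highest in replicate 2, at 62.4, 143 and 46.0 CPM per kb. In the other 3 Sec7 genes the SD was smaller. HPB47_009469, matching the F-box protein FBX8, was at 41.6 ± 1.99 CPM per kb (SD, n = 3), HPB47_012559, matching the Golgi Arf exchange factor BIG1, at 24.6 ± 2.74, and HPB47_019817, matching a PH and SEC7 domain protein, at 14.9 ± 5.92. The most abundant activating-side gene was HPB47_000764, matching the regulatory subunit alpha of phosphatidylinositol 3-kinase, whose RhoGAP-like domain sits beside SH2 domains. It was at 114, 123 and 98.5 CPM per kb in the GFP libraries (112 ± 12.5, SD, n = 3). Its order against cytohesin-2 is not fixed by these data, since the cytohesin-2 gene was below it in GFP replicates 1 and 3 and above it in replicate 2.

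In the RhoGEF and RhoGAP families, HPB47_000509, matching TRIO, a RhoGEF for Rac and RhoG that guides axons in flies, was at 90.6 ± 27.0 CPM per kb (SD, n = 3) in GFP. HPB47_003901, matching the RhoGEF PLEKHG1, was at 52.5 ± 16.8, and HPB47_019636, matching ARHGAP32, at 53.6 ± 27.3. The TRIO match was above both others within each GFP library, and all its GFP values were above all those of PLEKHG1. The PLEKHG1 and ARHGAP32 matches overlapped. HPB47_010287, matching ARHGAP39, known in flies as Vilse and acting below the Robo receptor, was at 46.1 ± 21.3 CPM per kb. Among Ras-type regulators the Ral exchange factor RGL1 led, with HPB47_009819 at 65.1 ± 28.5 CPM per kb, followed by HPB47_000075, matching the Ral exchange factor RalGPS1, at 27.8 ± 21.1. The leading RasGAP genes were HPB47_009818, matching fly raskol, at 27.6 ± 7.66 and HPB47_005995, matching RASA3, at 19.5 ± 3.44. The leading Rab-GAP-TBC genes were HPB47_026604, matching TBC1D23, a tether of endosome-derived vesicles at the Golgi, at 20.9 ± 2.52 and HPB47_007725, matching TBC1D15, an activating protein of the late endosomal Rab7, at 18.8 ± 2.71. HPB47_028455, matching ARFGAP1 of the Golgi COPI coat, was at 20.1 ± 10.6. Rap-GAP genes were low, with the highest, HPB47_001409, matching the Ral GTPase-activating subunit alpha-1, at 3.54 ± 1.02 and HPB47_006901, matching Rap1GAP, at 1.46 ± 1.23.

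Few genes carried each class. In GFP the leading gene, the PI3-kinase subunit, gave 18.6% of the summed CPM of activating proteins, the first 3 genes gave 47.3% and the first 5 gave 59.9%. The first 3 include HPB47_026554, whose carnitine palmitoyltransferase match is described below. Among exchange factors RGL1 gave 15.9%, the first 3 genes 39.5% and the first 5 genes 58.0%.

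Some gene models need care. HPB47_026554, at 49.3 ± 0.811 CPM per kb the most abundant ArfGAP gene, matched carnitine O-palmitoyltransferase 1 and carried that enzyme's domains beside the ArfGAP domain, so its counts cannot be assigned to the ArfGAP part. The same holds for HPB47_003818 (RhoGAP with a GPR107 match) and HPB47_026484 (Rab-GAP-TBC with a sulfotransferase domain). HPB47_026779, a Son of sevenless match, carried both a RasGEF and a RhoGEF domain and was counted in both families. IQGAP1 was the match of 3 genes, with 0, 346 and 29 counts over all libraries, and Rac GTPase-activating protein 1 of 2 genes, with 358 and 256 counts. Whether these are separate loci or pieces of 1 gene was not tested, and reads shared by near-identical copies could be split between them. The raskol match HPB47_009818 (1109143 to 1169985) and the RGL1 match HPB47_009819 (1172246 to 1226857), an activating protein and an exchange factor, are neighbours on scaffold JABSTQ010011298.1, 2261 bases apart. Outside the domain of the rule, 49 members had no other annotated domain. A PH domain, which binds membrane phosphoinositides, was annotated in 17 (8 activating, 9 exchange), a C1 domain in 7 (5 and 2) and an SH3 domain in 6 (3 and 3). Annotations named Pleckstrin homology domain (2 members, 0 activating and 2 exchange) and variant SH3 domain (4 members, 1 activating and 3 exchange) were counted apart from these.

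Summed over the class, activating proteins were at 1392, 1851 and 1246 CPM in GFP replicates 1 to 3, at 1704, 1463 and 1477 in MET, and at 1202, 1252 and 1207 in P23. Exchange factors were at 1500, 2267 and 1174 CPM in GFP, at 2247, 1237 and 1263 in MET, and at 1027, 1224 and 1238 in P23. GFP replicate 2 and MET replicate 1 were the highest library of their group in both classes. The 3 P23 libraries lay below all 3 MET libraries for activating proteins and overlapped the other groups elsewhere. The ratio of activating to exchange CPM was 0.935 ± 0.123 in GFP, 1.04 ± 0.241 in MET and 1.06 ± 0.102 in P23 (SD, n = 3 each). The groups overlapped, so no shift of this ratio was seen beyond the spread of the pools. The activating sum includes the PI3-kinase subunit HPB47_000764 (mean 278 CPM in GFP) and the carnitine palmitoyltransferase model HPB47_026554 (mean 207). Since the counts of HPB47_026554 cannot be assigned to its ArfGAP part, the ratio does not measure a balance of activities.

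**Figure D2:**
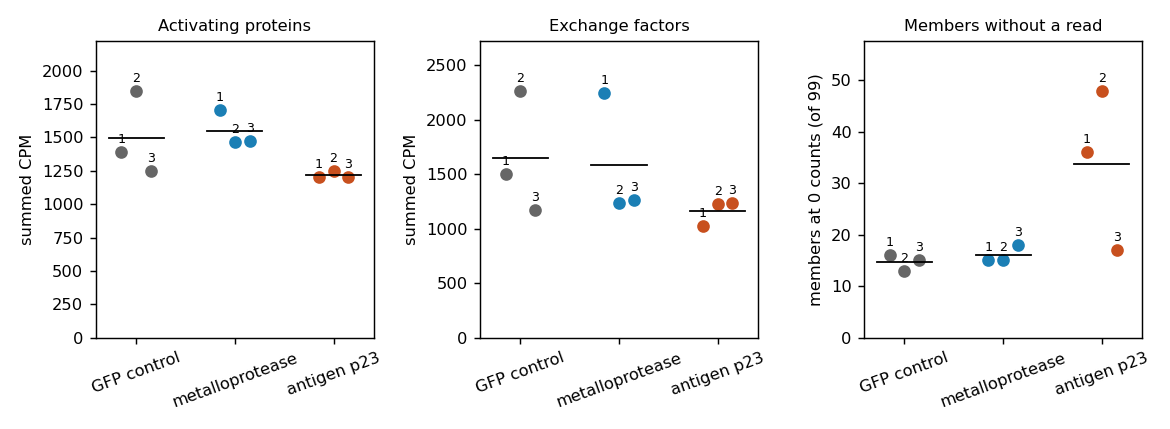
Summed CPM of the 63 activating proteins and of the 35 exchange factors, and the number of the 99 members at 0 counts, in each library. Points are libraries numbered by replicate and bars are group means; GFP replicate 2 and MET replicate 1 are the highest exchange factor sums (2267 and 2247 CPM), and P23 replicates 1 and 2 have the most members at 0 (36 and 48).

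GFP replicate 2 and MET replicate 1 shared a set of high members although they belong to different groups. Of the 65 members with at least 100 counts in all, 22 (33.8%) had these as their 2 highest libraries, against 24.2% of 6826 such genes of the table. In 3 members (4.62%, against 6.84% of genes) both were at least 2-fold above each of the other 7 libraries. HPB47_024924, matching TBC1D25, an activating protein for the autophagosomal Rab33B, is a model with no intron (scaffold JABSTQ010009564.1, 782785 to 783657). It had 2.82, 38.0 and 2.72 CPM in GFP, 59.3, 5.45 and 7.32 in MET and 1.65, 0.00 and 3.33 in P23. The cytohesin-2 match HPB47_025035 had 48.9, 273 and 53.5 CPM in GFP, 464, 66.0 and 72.5 in MET and 66.8, 67.4 and 75.7 in P23. The third was HPB47_026456, matching ARHGAP23, at 4.70, 36.1 and 12.7 CPM in GFP, 40.6, 12.9 and 10.9 in MET and 4.12, 7.17 and 8.17 in P23. In all 3 the differences within GFP and within MET were larger than those between the other pools of the groups.

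Silencing of antigen p23 was compared with the GFP control to ask which genes differ in midguts where it is silenced. Of the 99 members, 63 (39 activating, 24 exchange) passed the filter on low counts and were tested among 6381 genes with edgeR's quasi-likelihood test. No member passed an adjusted p of 0.05 (0% of all genes tested did). With the unadjusted threshold of 0.05 edgeR called 0 members, where 3.26% of all genes were called, 1.55% higher and 1.71% lower. DESeq2 called 0 members with adjustment (0.0796% of genes) and 3 without it, all lower in P23. Without adjustment it called 3.65% of genes, and 289 of these 438 genes were lower. The fit without P23 replicate 3 left the 2 libraries with few detected genes. It called 15 of 66 members unadjusted, all lower, where 754 of 6835 genes were called, 580 of them lower.

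Most members nevertheless had lower fitted values in P23. The log2 fold change was below 0 for 52 of 63 members (33 of 39 activating, 19 of 24 exchange), with a background of 56%. The median was -0.47 over members, -0.64 over activating proteins and -0.32 over exchange factors, against -0.10 over all genes tested. Among activating families the median was -0.59 for 17 RhoGAP, -0.76 for 11 Rab-GAP-TBC, -0.84 for 4 RasGAP and -0.51 for 6 ArfGAP genes. Among exchange families it was -0.24 for 14 RhoGEF, -0.52 for 6 RasGEF and -0.20 for 5 Sec7 genes. The offset moved with the level of the gene. Members with a mean under 10 CPM had a median of -0.86 (21 of 24 below 0) against -0.39 for all genes of that level (66.5% below 0). Members of 10 to 30 CPM had -0.55 (16 of 18) against -0.17 (60.5%). Members of 30 to 100 CPM had -0.24 (12 of 13) against -0.08 (56.3%). The 8 members of 100 CPM or more had 0.09 (3 of 8) against 0.15 (35.8%). With only P23 replicate 3 kept in its group, the median was -0.28 over 73 members (53 below 0), against -0.11 over all genes (57.7% below 0). Without GFP replicate 2 it was -0.31 over 64 members (42 below 0), against -0.03 over all genes (51.5% below 0). By class, the activating median was -0.31 with only P23 replicate 3 kept and -0.40 with at least 10 counts required in every library, and the exchange median was -0.20 with only P23 replicate 3 kept and -0.15 without GFP replicate 2.

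**Figure D3:**
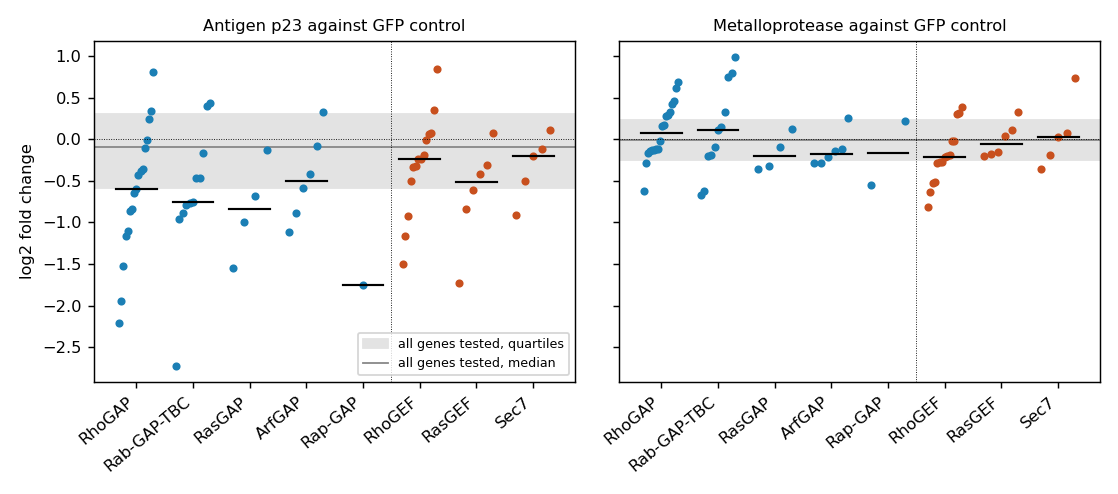
Log2 fold change of each tested member against the GFP control, by Pfam family, for antigen p23 (left) and metalloprotease (right); black bars are family medians, and the grey band and line are the quartiles and the median of all genes tested. In the p23 panel the medians of all families, activating and exchange, lie below the all-gene median of -0.10. No member passed an adjusted p of 0.05 in either panel.

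Members without counts followed the libraries. Of the 81 members with counts in all 3 GFP libraries, 19 (23.5%) were at 0 in P23 replicate 1, against 18.3% of the 8346 genes of the table that had counts in all GFP libraries. In P23 replicate 2 it was 30 (37.0%) against 27.7%, and in P23 replicate 3 it was 2 (2.47%) against 4.83%. In P23 replicate 2 this touched 23 of 51 activating proteins (45.1%) and 6 of 29 exchange factors (20.7%). These zeros moved with level. Of members at 5 to 20 CPM in GFP, 12 of 26 (46.2%) were at 0 in P23 replicate 2, against 25.9% of 2207 genes, and of the 22 members at 20 to 100 CPM none was, against 3.45% of 2349 genes. Of the 24 tested members under 10 CPM in the P23 and GFP libraries 20 were activating, so the classes were also set side by side at like level. Under 10 CPM the median log2 fold change was -0.86 over 20 activating and -0.91 over 4 exchange genes, and at 10 to 30 CPM it was -0.47 over 11 and -0.62 over 7. At 30 to 100 CPM it was -0.36 over 5 and -0.24 over 8, and at 100 CPM or more 0.32 over 3 and -0.20 over 5, so activating genes were not lower at every level.

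The member with the smallest p in P23 against GFP was HPB47_026548, matching intersectin-1, an endocytic scaffold that loads Cdc42 with GTP (scaffold JABSTQ010009728.1, 103459 to 183952). It had 23.5, 21.8 and 16.0 CPM in GFP and 30.2, 35.9 and 27.5 in P23, and MET lay across both at 16.2, 33.6 and 26.9. It was the only tested member with all P23 libraries above all GFP libraries, where 2.07% of genes did so. Its log2 fold change was 0.84 (SE 0.42, edgeR adjusted p = 0.964).

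In the other direction 9 tested members (6 activating, 3 exchange) had all P23 libraries below all GFP libraries, against a background of 11%. HPB47_024858, matching the Rac activating protein ARHGAP15, had 50.8, 64.7 and 45.7 CPM in GFP and 12.9, 25.5 and 39.1 in P23, a log2 fold change of -0.86 (SE 0.43, edgeR adjusted p = 0.964). HPB47_009457, matching neurofibromin, a RasGAP that is a tumour suppressor in humans, had 15.8, 10.7 and 9.68 CPM in GFP and 1.10, 1.15 and 8.78 in P23. Here P23 replicate 3 was near the GFP range and replicates 1 and 2 were near 0. Its log2 fold change was -1.55 (SE 0.95, edgeR adjusted p = 0.964).

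HPB47_000041, matching the RhoGEF PLEKHG4B, had 28.7, 37.8 and 39.9 CPM in GFP and 7.70, 13.8 and 28.2 in P23. HPB47_006708, matching TBC1D5, an activating protein for Rab7 on retromer-coated endosomes, had 25.2, 27.3 and 27.5 CPM in GFP and 12.1, 3.44 and 19.4 in P23. HPB47_005175, matching ARHGAP1, had 5.41, 5.98 and 6.35 CPM in GFP and 1.65, 0.861 and 2.72 in P23. In all 3 of these P23 replicate 3 was the highest P23 library.

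The remaining 4 of the 9 were HPB47_003818, HPB47_008337 (matching StAR-related lipid transfer protein 13, a RhoGAP), HPB47_007891 (a RasGEF gene with no match) and HPB47_011009 (matching the Rap exchange factor RAPGEF2), with log2 fold changes of -2.20, -1.10, -1.73 and -0.62. Among members with the smallest p, the TBC1D25 match was at -2.73 (SE 1.40) on the log2 scale and the ephexin-1 match HPB47_011596 at -1.16 (SE 0.66). For both of these the groups overlapped, and GFP replicate 2, at 38.0 CPM against 2.82 and 2.72 in the other GFP libraries, carried the value of the TBC1D25 match. Without GFP replicate 2 that gene did not pass the filter. With only P23 replicate 3 kept, the ephexin-1, ARHGAP15, PLEKHG4B and neurofibromin matches were at -0.30, -0.29, -0.18 and -0.32.

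**Figure D4:**
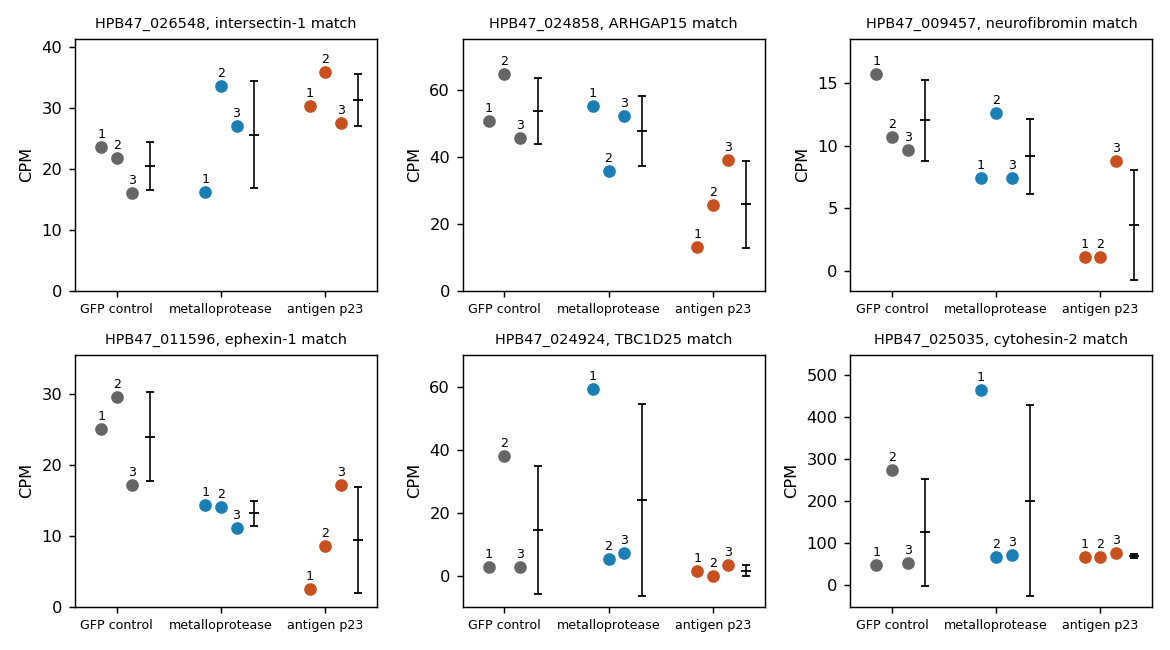
CPM of 6 members in each library; points are libraries numbered by replicate, and the bar beside each group is the mean ± SD of 3 libraries. The intersectin-1 match is higher in all P23 than in all GFP libraries, the ARHGAP15 and neurofibromin matches are lower, the ephexin-1 match is lower in all MET libraries, and the TBC1D25 and cytohesin-2 matches are high in GFP replicate 2 and MET replicate 1.

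The MET group was compared with the same 3 GFP libraries, so the control values are shared with the comparison above. Since the study reported only a partial knockdown of the metalloprotease in midgut, these values do not describe its full loss there. Of the 99 members 66 (41 activating, 25 exchange) were tested among 6786 genes, and none passed an adjusted p of 0.05 (0% of all genes did, in edgeR and in DESeq2). Without adjustment edgeR and DESeq2 each called 1 member, where 1.43% of genes were called by edgeR (0.737% higher, 0.693% lower) and 1.44% by DESeq2. Log2 fold changes were below 0 for 39 of 66 members, against 50.6% of all genes, and the median was -0.11 over members, -0.09 over activating proteins and -0.18 over exchange factors, against -0.00 over all genes. Without GFP replicate 2 the median of the activating proteins turned to 0.09 and that of all members to 0.06, with -0.10 for exchange factors. Without GFP replicate 1 the median was -0.05 over members and -0.02 over exchange factors.

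The member with an unadjusted p under 0.05 was the ephexin-1 match HPB47_011596, a RhoA exchange factor that acts below Eph receptors in mammalian neurons (scaffold JABSTQ010011446.1, 814979 to 854820). It had 25.2, 29.7 and 17.2 CPM in GFP and 14.4, 14.1 and 11.1 in MET, so the groups did not overlap. Its log2 fold change was -0.82 (SE 0.32, edgeR adjusted p = 1.00). In P23 it had 2.47, 8.61 and 17.3 CPM, overlapping both. In fits without GFP replicate 1, MET replicate 1 or MET replicate 3, no member had an unadjusted p of 0.05 or under. Without GFP replicate 2 there were 2 of 66 members (3.03%), both activating and both higher in MET. In that fit 244 of all genes (3.51%) were called, 97 of them lower.

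In all, 4 tested members (3 activating, 1 exchange) were lower in all MET than in all GFP libraries, against a background of 3.73%, and none was higher in all, against 2.03%. HPB47_002383, matching USP6NL, an activating protein that acts on the early endosomal Rab5, had 7.05, 7.26 and 7.86 CPM in GFP and 5.91, 4.59 and 3.39 in MET (log2 fold change -0.67, SE 0.42). The ARHGAP1 match HPB47_005175 had 4.88, 4.31 and 2.33 CPM in MET, below its GFP values above (log2 fold change -0.62, SE 0.46). The carnitine palmitoyltransferase and ArfGAP model HPB47_026554 was the other, with a log2 fold change of -0.12.

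Further members by the size of p overlapped between the groups. HPB47_003901, the PLEKHG1 match, had 61.7, 62.5 and 33.1 CPM per kb in GFP and 49.3, 16.8 and 33.9 in MET (log2 fold change -0.63, SE 0.41). HPB47_025150, matching skywalker, a fly Rab activating protein of synaptic vesicles, had 6.35, 7.48 and 2.72 CPM in GFP and 13.9, 6.60 and 6.89 in MET (log2 fold change 0.74, SE 0.48). HPB47_000507, matching kalirin, a relative of TRIO, had a log2 fold change of -0.52 (SE 0.44). It lies 14442 bases from the TRIO match HPB47_000509, with 1 gene between them. Whether these are separate loci or pieces of 1 gene was not tested.

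The direct comparison of P23 with MET, which is the test of the difference between the effects of the 2 injections, covered 62 members (38 activating, 24 exchange) among 6383 genes. No member passed the adjusted threshold in edgeR (0% of all genes) or with DESeq2 (0.297%). Without adjustment edgeR called 1 member, lower in P23, where 2.57% of genes were called (1.05% higher, 1.52% lower), and DESeq2 called 5, where 3.47% of genes were called. The median log2 fold change was -0.36 over members, -0.62 over activating proteins and -0.28 over exchange factors, against -0.07 over all genes, and it was below 0 for 47 of 62 members, against 55.2%. With only P23 replicate 3 kept, the median of the activating proteins was -0.23 and that of the exchange factors -0.12. Without P23 replicate 3, 12 of 65 members were called without adjustment, all lower, where 586 of 6788 genes (8.63%) were called, 460 of them lower.

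The TBC1D25 match HPB47_024924 was the member called unadjusted, with all P23 libraries under the lowest MET library (log2 fold change -3.52, SE 1.28, edgeR adjusted p = 0.998). MET replicate 1 carried most of that difference, and without it the log2 fold change was -1.82. Tested members lower in all P23 than in all MET libraries numbered 9 (7 activating, 2 exchange), against a background of 8.27%, and none was higher in all, against 1.58%. They included HPB47_026456, matching ARHGAP23, with a log2 fold change of -1.48 (SE 0.66), or -0.79 without MET replicate 1, and HPB47_005995, matching RASA3, which switches off Ras and Rap. The RASA3 match had 41.1, 28.4 and 30.4 CPM in MET and 10.4, 13.5 and 26.3 in P23 (log2 fold change -0.81, SE 0.48). The exchange genes were HPB47_007891 (log2 fold change -2.05, SE 1.01) and HPB47_023040, matching the RhoGEF DBS, with 63.5, 58.8 and 48.5 CPM in MET and 20.6, 37.9 and 45.7 in P23 (log2 fold change -0.54, SE 0.38). The cytohesin-2 match HPB47_025035 was at -1.22 on the log2 scale (SE 0.65), with overlapping groups, and this turned to 0.13 without MET replicate 1.

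Only 1 member was at 0 counts in a whole group and had at least 10 counts in each library of another. HPB47_026424, a Rap-GAP gene matching GARNL3 (scaffold JABSTQ010009716.1, 903377 to 982429), had 0, 0 and 0 counts in P23, 1, 11 and 19 in GFP and 20, 11 and 15 in MET. With a floor of 3 counts over the group, it was at least 9.51-fold lower in P23 than in MET and at least 8.80-fold lower than in GFP. It passed the filter in the comparison of MET with GFP alone. The Rap1GAP match HPB47_006901 had 7, 15 and 1 counts in GFP, 4, 6 and 23 in MET and 0, 0 and 2 in P23, a ratio of GFP to P23 of 9.79 (95% counting interval 2.42 to 85.7). The Ral activating subunit HPB47_001409 had 11.3, 6.20 and 9.07 CPM in GFP and 0.00, 0.00 and 7.27 in P23. All 3 Rap-GAP genes were thus at 0 in P23 replicates 1 and 2, and 2 of them had counts in P23 replicate 3. Of 2325 genes at 1 to 5 CPM in GFP, the range of HPB47_026424 and HPB47_006901, 50.2% and 68.9% were at 0 in P23 replicates 1 and 2. Of 2207 genes at 5 to 20 CPM, the range of HPB47_001409, it was 14.2% and 25.9%. Such intervals and floors cover counting error only.

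The GTPases themselves and their further regulators gave the setting for these values. Of 95 genes with a Ras-type or Arf-type GTPase domain, 48 were tested in P23 against GFP, with 24 above 0, 24 below 0 and a median log2 fold change of -0.05. The 26 exchange factors of other families (DENN, VPS9, DOCK, RCC1 and related domains) had 18 tested, 4 above 0 and 14 below 0, with a median of -0.27. The 5 tested RGS genes had a median of -0.51, the 5 tested genes with a CRIB motif, which bind active Cdc42 and Rac, -0.24, and the 2 GDP dissociation inhibitors 0.13. None of these genes passed an adjusted p of 0.05. In MET against GFP the medians were -0.10 for 50 GTPases, -0.07 for 19 other exchange factors, 0.23 for 5 RGS genes, -0.10 for 5 CRIB genes and 0.02 for the 2 inhibitors.

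Among single genes of these lists, 2 RhoA matches had opposite signs in P23 against GFP, HPB47_013858 with a log2 fold change of 2.17 (SE 0.87, edgeR adjusted p = 0.964) and HPB47_001823 with -1.63 (SE 0.71, edgeR adjusted p = 0.964). HPB47_008741, matching the RCC1-domain ligase HERC4, was at 0.90 (SE 0.39) and HPB47_005308, matching the Rab exchange factor DENND4C, at -0.85 (SE 0.48). The G protein-coupled receptor kinase matches HPB47_024548 and HPB47_021691, which hold an RGS domain, were at -0.51 (SE 0.41) and -1.74 (SE 1.52). The CRIB kinase HPB47_012169, matching PAK mbt, was at -0.67 (SE 0.54).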

How the data were processed

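Midgut RNA of 9 pools (3 GFP, 3 MET, 3 P23) was sequenced as poly-A paired-end libraries. The authors mapped cleaned reads with Bowtie2 (2.5.3, per the labels' processing notes) to the *I. persulcatus* genome BIME_Iper_1.3 and assigned them to genes with featureCounts. The values used were the authors' raw counts, not normalised; strand and multi-mapping settings were not given in the sources used here. Reads of *I. ricinus* were thus placed on a related species, which can lower counts of diverged genes. The gene_length column was a coding length in nearly all rows (97.9% are multiples of 3). No sequence of a member is shown, since no sequence table for this build was used here.

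Each comparison was fitted on its own 6 libraries with edgeR 4.0.16 (TMM, filterByExpr, robust quasi-likelihood F test; R 4.3.3, limma 3.58.1) and Benjamini-Hochberg adjustment over all genes tested, threshold 0.05; DESeq2 1.42.0 was an alternative. SE is the absolute log2 fold change divided by the square root of F. The script was tested on simulated data with 200 changed genes. At the adjusted threshold it recovered 33.7% of 4-fold and 69.6% of 16-fold changes in P23 against GFP. The shares were 39.8% and 88.2% in MET against GFP, and 26.5% and 63.7% in P23 against MET. A member changed 4-fold could thus often be missed. CPM in the text is relative to the library total. Nothing says that pools came from separate experiments, so p-values measure the spread between pools.

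Members and lists were chosen with earlier results of these data known. Named were members with an unadjusted p at or under 0.05, the 3 smallest p per class and comparison, the 2 highest levels per family, members at 0 in a whole group with 10 or more counts in each library of another, and neighbours with the same match (none). For each further list the genes with the smallest p were named. Other names in the text were chosen after their values were seen. Same-numbered replicates did not deviate together (correlations of -0.48 to 0.09), so no pairing by number was seen. With 3 pools per group, this check cannot exclude a pairing. Alternatives were other size factors, other filters, all 9 libraries in 1 fit, no robust estimation, a replicate block, DESeq2, leaving out each replicate, and keeping only P23 replicate 3 of its group.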

Additional observations from a re-analysis of the deposited data

How the results depend on the processing

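No member passed an adjusted p of 0.05 under any alternative run, and all 18 fold changes of named members stayed on the same side of that threshold over 239 alternatives, with a lowest adjusted p of 0.178. The direction turned in 1 of them, the cytohesin-2 match HPB47_025035 in P23 against MET (0.13 without MET replicate 1, and -1.63 to 0.13 when leaving out each replicate). In P23 against GFP, where no gene passed the adjusted threshold, DESeq2 called 6 genes and the fit with no filter on low counts 5. Members called unadjusted there, 0 with the main settings, were 3 with DESeq2 (3.41%, against 3.61% of all genes in that fit), 3 with all 9 libraries in 1 fit (4.48% against 4.95%) and 3 with no filter (3.41% against 5.61%), and 0 to 15 when leaving out each replicate. In MET against GFP the 1 member called unadjusted became 0 with all 9 libraries, with no filter and with the replicate block, where 0.607%, 1.38% and 0.810% of all genes were called, and 0 to 2 when leaving out each replicate (2 without GFP replicate 2, where 3.51% of genes were called). In P23 against MET the calls over all genes were 21 with DESeq2, 16 with no filter, 1 with at least 10 counts in every library and 1 with the replicate block. Its members called unadjusted, 1 with the main settings, were 5 with DESeq2 (5.68% against 3.43% of all genes), 4 with all 9 libraries (5.97% against 3.99%) and 3 with no filter (3.41% against 5.32%), and 0 to 12 when leaving out each replicate (12 without P23 replicate 3, 18.5% against 8.63%). The median of its activating proteins, -0.62, was -0.20 with at least 10 counts in every library, -0.23 with only P23 replicate 3 kept, -1.12 with the replicate block, and -1.10 to -0.51 when leaving out each replicate. The causes were not tested. No pairing of the pools by replicate number was seen, but 3 pools per group are too few to settle it. Calls under the block were therefore not read as a weaker effect. Where leaving out replicates kept a lone P23 library, it was assumed to vary like the GFP or MET libraries. Members that the filter on low counts left without a test are not covered by these counts. The DESeq2 shares in this section are of all genes in the fit (12129 in P23 against GFP, 12114 in P23 against MET). Those in the Results leave out genes to which DESeq2 gave no p (12001 and 11992 genes remained).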
